A study of Homo sapiens with 15 samples.

Results

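The measurements described here come from the 3 dual-color arrays on which A549 cells given a miR-181d mimic were compared with A549 cells given a miR-181d antagomir. The 3 arrays were chosen by their labels, miR-181d replicates 1 to 3, out of 15 arrays in all. The study asked how the mRNAs of lung cancer cells respond to miRNAs that it describes as radiation-responsive. The 12 other arrays compared mimic and antagomir of miR-565, miR-574-3p, miR-629* or miR-766 in the same way, 3 arrays per miRNA, and serve as the reference for what a mimic and an antagomir have in common. A549 is an established human lung adenocarcinoma cell line. On each array the Cy5 channel held total RNA of cells transfected with 20 nM of the miRNA precursor oligonucleotide (the mimic), and the Cy3 channel held total RNA of cells transfected with 20 nM of an antisense oligonucleotide against the same miRNA (the antagomir, an LNA-modified oligonucleotide). Both oligonucleotides were from Exiqon, and RNA was taken 24 h after transfection. All 15 arrays share this layout, so dyes were never swapped, and untransfected or mock-transfected cells were not analyzed here. The labels number the arrays as replicates without saying whether they are separate cultures, so that p values measure the spread between these arrays, which may be technical. The arrays measure mRNA, and the level of miR-181d itself was not analyzed here.

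A miRNA guides an Argonaute complex to mRNAs through its seed, the bases near its 5′ end, which pair with complementary stretches that lie mostly in 3′-untranslated regions, and the bound mRNA is then translated less and often degraded. The miR-181 family has 4 mature members that share a seed and therefore share most predicted targets, and it has been studied in lymphocyte signaling, cell survival and cancer. An antagomir binds the miRNA of the cell and keeps it from its targets. A target cleaved or destabilized through the seed would have a lower signal in Cy5 than in Cy3 on these arrays.

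The mature sequences of the family are shown because the seed, in capitals (bases 2 to 8), defines the sites that were counted on the array probes. The sequences are from RefSeq (GRCh38.p14), in which miR-181d lies on chromosome 19 (chr19:13874910-13874932, plus strand) next to miR-181c (chr19:13874725-13874746, plus strand).

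hsa-miR-181a-5p: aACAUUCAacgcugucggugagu
hsa-miR-181b-5p: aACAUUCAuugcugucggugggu
hsa-miR-181c-5p: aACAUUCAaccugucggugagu
hsa-miR-181d-5p: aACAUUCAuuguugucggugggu

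All 4 have the seed ACAUUCA, and the DNA letters that pair with it are TGAATGT.

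The level given for a gene on an array is the log2 ratio of the processed Cy5 signal to the processed Cy3 signal, so that a negative value is a lower signal with the mimic than with the antagomir. Of the 41000 probes, 69.0% to 71.4% passed the software's test of being well above background in the Cy3 channel of the 3 miR-181d arrays, and 73.0% to 75.1% passed it in Cy5. No spot was saturated. Adjusted p values were taken over 31319 probes of 22995 genes. With 3 arrays the number of arrays sets the precision. Between them, the ratio of a probe with a mean signal under 20 had a median SD of 0.40, and that of a probe over 1000 had one of 0.068.

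The spread of the ratios differed between arrays before any gene was considered. Apart from replicate 1 of miR-565, the arrays of other miRNAs had interquartile ranges from 0.257 to 0.368. The first miR-181d array had a wider spread of ratios (interquartile range 0.424) than the second (0.280) and the third (0.281), and replicate 1 of miR-565, which lay on the same slide, was wider still (1.02). The arrays of miR-181d shared slide 1 with that array alone, so slide and miRNA could be compared within a slide only through it. The main counts of calls are given with and without replicate 1 of miR-565 and the first miR-181d array. Other counts are those with all arrays unless stated.

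Across the 31319 probes, the 3 miR-181d arrays resembled each other about as much as they resembled arrays of other miRNAs. The correlation of the log2 ratio was 0.42 between arrays 1 and 2, 0.27 between arrays 1 and 3 and 0.38 between arrays 2 and 3. Array 1 correlated more with replicates 2 and 3 of miR-629* (0.57 and 0.56) than with either array of its own group. The mean of the 3 arrays had a correlation of 0.54 with the mean of the other 4 miRNAs, and of 0.67 over the 19250 probes with a mean signal of at least 100. The points of these correlations are probes, which share the dyes, the labeling kit and the array design and are not independent replicates.

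**Figure D1:**
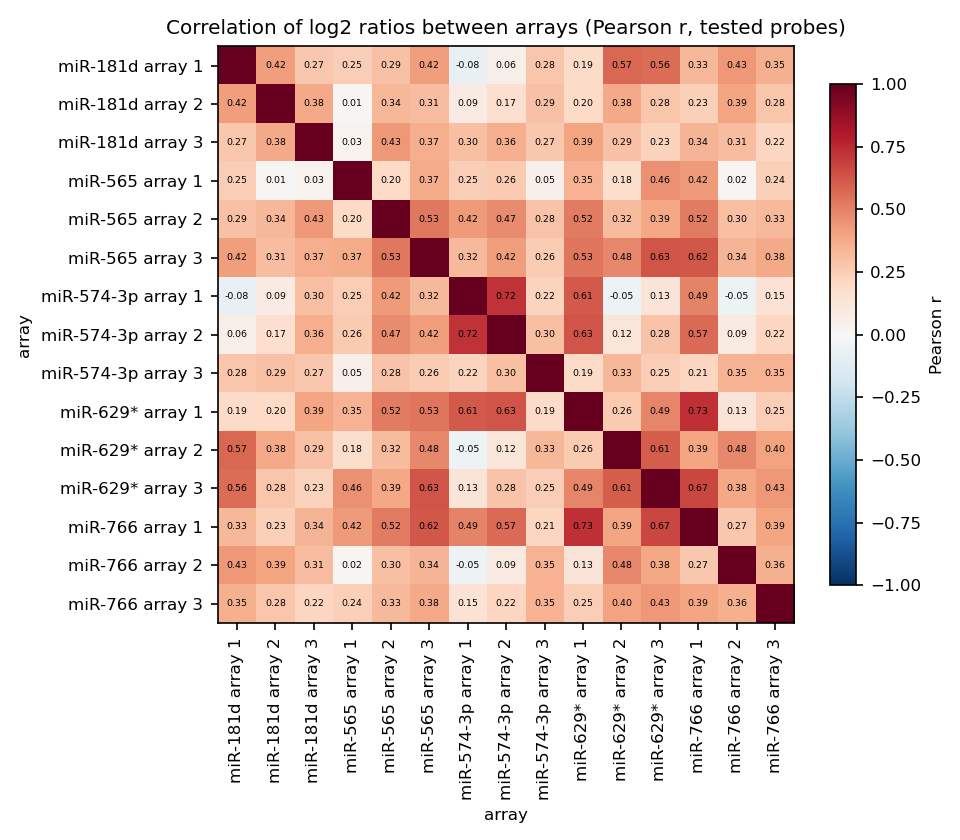
Pearson correlation of the log2 ratio (mimic over antagomir) between all pairs of the 15 arrays over the tested probes, as a color map with both axes in label order and the value printed in each cell. The miR-181d arrays correlate at 0.27 to 0.42 with each other, and array 1 at -0.08 to 0.57 with the arrays of other miRNAs.

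The first comparison asked which genes were lower in cells with the mimic than in cells with the antagomir, at thresholds taken from the study's methods, which are a ratio below 0.5, a Cy3 signal no lower than 20 and a p, before adjustment, no higher than 0.001. Only 4 of 31319 probes (0.0128%) met them in the limma fit, and they belong to 2 genes, HNRPA3 and HECTD3. HNRPA3 (now HNRNPA3), which encodes an RNA-binding protein of the hnRNP family, was covered by 3 of these probes (chr2:177785764-177788556, chr2:177788537-177788596 and chr2:177788575-177788634, NCBI36). The probe at chr2:177788537-177788596 had log2 ratios of -2.32, -0.71 and -0.46 on arrays 1 to 3, a mean of -1.17 (SE 0.25, limma adjusted p = 0.0174). Array 1 was far lower than the other two, and the 12 arrays of other miRNAs ranged from -0.78 to -0.14, so that arrays 2 and 3 lay inside their range. HNRNPA3 has processed pseudogenes with nearly the same sequence, and its probes may record their transcripts too. HECTD3, a ubiquitin ligase (chr1:45241412-45241471, NCBI36), had log2 ratios of -1.90, -0.76 and -0.60, a mean of -1.08 (SE 0.20, limma adjusted p = 0.0106). All 3 of its values were below the lowest of the other 12 arrays (-0.43). Over the alternatives the limma adjusted p of the ratio ranged from 0.000528 to 0.0996 for HECTD3 and from 0.00343 to 0.159 for the HNRPA3 probe given in full. Without array 1 neither gene met the thresholds, while without array 2 there were 7 such genes and without array 3 there were 13.

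The mirror thresholds (a ratio over 2 and a Cy5 signal of at least 20) were met by 6 probes (0.0192%), all of them dim, with mean Cy5 signals between 20.5 and 36.2. C12orf42 had a mean Cy5 signal of 23.4, its Cy3 signal was not well above background on any of the 3 arrays, and the signal with the mimic was at least 2.66-fold higher (limma adjusted p = 0.00302). This bound sets the mean log2 Cy5 signal against the lowest signal well above background on each array. PIK3AP1, an adaptor of phosphoinositide 3-kinase signaling, had Cy5 signals of 16.2, 20.5 and 24.8 and Cy3 signals of 3.53, 3.51 and 11.5. GEFT (ARHGEF25), a guanine nucleotide exchange factor, had Cy5 signals of 47.5, 25.5 and 14.8 and Cy3 signals of 9.20, 9.48 and 8.76. The Cy3 signals of PIK3AP1 and of GEFT were well above background on 1 of 3 arrays each, so that their ratios were measured on both sides on that array alone. DMRTC1 (log2 ratios of 1.49, 1.08 and 1.05), the transcript AA301508 (1.28, 1.01 and 0.87) and the unnamed probe A_24_P799680 (1.21, 0.87 and 0.99) completed the set. For all 6 the mean over the 12 other arrays was also positive, and the values of miR-181d overlapped the range of those arrays. None of the 6 had a Cy5 signal of 100.

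Without a limit on the size of the ratio, 900 probes (2.87%) were lower and 1071 (3.42%) were higher at a limma adjusted p under 0.05, which are 831 and 1029 genes. Most of these ratios were small. Centering each array on its median gave 1363 genes lower and 1032 higher, and normexp background correction with loess gave 1640 and 1018, so that the balance of the directions depends on the scaling. The counts fell to 43 lower and 75 higher genes without array 1, to 104 and 130 without array 2, and to 236 and 300 without array 3. Without replicate 1 of miR-565, which enters the estimate of the spread, they were 3485 and 4337. The ratio of a single miRNA also holds any dye effect, and the 2 cannot be told apart within these 3 arrays.

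Among probes with a mean signal of at least 100, the lowest ratios came mostly from array 1. HIST1H1D and HIST1H1E, which encode linker histones, had log2 ratios of -1.82, -0.37 and -0.36 and of -1.53, -0.54 and -0.40 (limma adjusted p = 0.0309 and 0.0131). HDGF, a heparin-binding growth factor, had -1.71, -0.54 and -0.43 (limma adjusted p = 0.0102). In each of these genes array 1 was far below both others, which lay close together. Without each miR-181d array in turn the limma adjusted p ranged from 0.044 to 0.185 for HIST1H1D, from 0.022 to 0.0948 for HIST1H1E and from 0.00865 to 0.0326 for HDGF, and it was highest without array 1 for both histone genes. Genes on which the 3 arrays came close to one another included TSR2, a ribosome biogenesis factor, with -0.73, -0.71 and -0.87 (limma adjusted p = 0.0013). SLC1A5, a glutamine transporter, had -1.12, -0.61 and -0.61 (limma adjusted p = 0.00315). With single arrays left out the adjusted p of TSR2 was 0.0139 to 0.0225, and that of SLC1A5 was 0.0189 to 0.0504. Neither was particular to miR-181d, since the 12 other arrays averaged -0.62 for TSR2 and -0.53 for SLC1A5. At the other end, PRPF19, a core splicing factor, had ratios of 1.77, 1.19 and 0.59 (limma adjusted p = 0.0344), and LMNB1, a nuclear lamin, had 1.52, 0.46 and 0.30 (limma adjusted p = 0.0453). Neither passed when any miR-181d array was left out, with adjusted p from 0.0561 to 0.317 for PRPF19 and from 0.0565 to 0.438 for LMNB1.

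The second comparison set the miR-181d ratio against the mean ratio of the other 4 miRNAs, so that a dye effect shared by the arrays drops out. No probe (0%) differed at a limma adjusted p under 0.05, where the lowest adjusted p was 0.156, while 2197 probes (7.01%) had an unadjusted p under 0.05. An error-weighted mean in place of limma gave 781 probes. Normexp correction, centering, the replicate block, no variance trend and the fit of 3 against 12 arrays each gave 0 probes, as did leaving out each miR-181d array in turn. With slide as a block 16514 probes differed, and 18532 did against the reference of the same slide, both of which rest on replicate 1 of miR-565, the single array of another miRNA on slide 1.

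The genes with the smallest p for this difference are given as values that did not pass. TRIOBP, which encodes an actin-bundling protein (chr22:36498573-36498632, NCBI36), had log2 ratios of -0.48, -0.05 and -0.17, a difference of -0.74 (SE 0.12, limma adjusted p = 0.156). FGFRL1, an FGF receptor relative without a kinase domain (chr4:1009939-1009998, NCBI36), had -0.10, -0.20 and -0.26, a difference of -0.81 (SE 0.13, limma adjusted p = 0.156). For both genes the miR-574-3p arrays stood far above all others, with mean ratios of 2.31 for TRIOBP and 2.16 for FGFRL1, while the means of the other 3 miRNAs lay between -0.19 and 0.00 for TRIOBP and between -0.02 and 0.25 for FGFRL1. CD22, a lectin of B cells with a Cy3 signal of only 12.5, had -0.47, -0.39 and -0.92 (difference -1.23, limma adjusted p = 0.369). FSTL4, a follistatin-like gene, had -0.71, -0.46 and -0.41 (difference -0.60, limma adjusted p = 0.369). CAPNS1, the regulatory subunit of calpain proteases, had -0.39, -0.30 and -0.30 (difference -0.33, limma adjusted p = 0.369). The values of CD22, FSTL4 and CAPNS1 on the 3 arrays were below all 12 other arrays, and for FSTL4 the means of the other 4 miRNAs lay close together, between -0.06 and 0.18.

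On the higher side, MGST3, a microsomal glutathione transferase, had ratios of -0.16, -0.08 and -0.09 (difference 0.28, limma adjusted p = 0.156). The mean for miR-629* was -1.05, and those of miR-574-3p and miR-766 (-0.04 and -0.05) were above the miR-181d values. HSBP1, a small protein that binds heat shock factor, had 0.32, 0.19 and 0.15 (difference 0.29, limma adjusted p = 0.232), above all 12 other arrays. TMEM85 (EMC4), a subunit of the endoplasmic reticulum membrane complex, had -0.14, -0.15 and -0.09 (difference 0.32, limma adjusted p = 0.302). TAF15, an RNA-binding protein, had 1.64, 0.44 and 0.26 (difference 1.33, limma adjusted p = 0.273), with array 1 far above the rest. Its reference was split, with means of -1.14 for miR-629* and -1.33 for miR-766 against -0.12 for miR-574-3p and 0.37 for miR-565. SPIN1, a reader of histone methylation, had 0.27, 0.20 and 0.21 (difference 0.28, limma adjusted p = 0.349). For SPIN1 the single low reference was again miR-574-3p (-0.60), and the other 3 miRNAs averaged between 0.09 and 0.18.

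**Figure D2:**
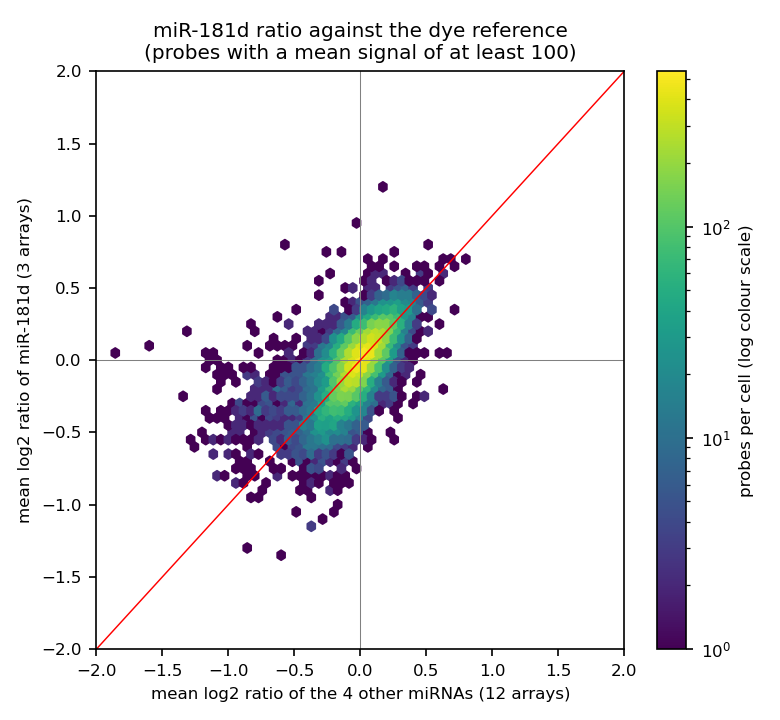
Mean log2 ratio of the 3 miR-181d arrays (y axis) against the mean of the other 4 miRNAs (x axis) for tested probes with a mean signal of at least 100, as hexagonal cells colored by the number of probes (log color scale), with the line of equal values in red. The cloud lies along that line (correlation 0.67 over 19250 probes), and single probes lie off it on both sides.

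When replicate 1 of miR-565 was left out of this comparison, 152 probes differed at a limma adjusted p under 0.05, 97 of them lower (0.310%) and 55 higher (0.176%). Of the 10 genes above, all but CD22 were among them, with adjusted p between 0.00054 for FGFRL1 and 0.0422 for CAPNS1. Over the alternatives the adjusted p of FGFRL1 ranged from 2.12e-06 (slide as a block) to 0.98 (an array of miR-181d left out), and the adjusted p of the other 9 genes lay inside that range. The ratio had the same sign on all 3 arrays for 129 of the 152 probes, and for 47 it also passed against 0. When array 1 of miR-181d was left out as well, a choice made after seeing the data, 16 probes passed, 15 lower and 1 higher, and 9 of them were among the 152. Of the 10 genes above, TRIOBP, FGFRL1 and MGST3 were among the 16 and the other 7 were not. PLD3, a lysosomal exonuclease, and LTBP4, a binding protein of latent TGF-beta, were 2 of these 9, with log2 ratios of -0.18, -0.34 and -0.36 and of -0.22, -0.29 and -0.25, all below the 12 other arrays (limma adjusted p = 0.0282 and 0.0296 in that fit). In the 7 that were not among the 152, array 1 had the highest of the 3 ratios. TADA3L, a subunit of histone acetyltransferase complexes, had -0.15, -0.54 and -0.46, and COPE, a coat protein of Golgi vesicles, had 0.07, -0.44 and -0.36. Neither of these probes was the brightest of its gene, and the values of the brightest are not given here.

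Several genes that passed without that array had nearly equal ratios on the 3 miR-181d arrays. CAPN1, the catalytic subunit that pairs with CAPNS1, had log2 ratios of -0.52, -0.48 and -0.56, all below the 12 other arrays, and a difference of -0.35 (limma adjusted p = 0.0304, against 0.658 with all arrays). APOBEC3C and APOBEC3F, cytidine deaminases that restrict retroviruses and that lie near each other on chromosome 22, had -0.58, -0.61 and -0.51 and -0.44, -0.57 and -0.52 (limma adjusted p = 0.0315 and 0.0317, against 0.611 and 0.572 with all arrays). The APOBEC3 genes are paralogs with similar sequence, so their probes may share transcripts. NR1H2, a nuclear receptor for oxysterols, had -0.54, -0.59 and -0.47 on a probe that was not its brightest. CLDN2, a claudin of tight junctions, had -0.56, -0.47 and -0.59, and CFL1, the actin-severing cofilin, had -0.43, -0.43 and -0.46. PKM2, a pyruvate kinase, had -0.34, -0.31 and -0.31, below all 12 other arrays (lowest -0.24). None of these 7 genes passed when array 1 of miR-181d was left out as well (limma adjusted p from 0.0773 to 0.123).

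Among the genes that were higher without that array, CDC42, a small GTPase that controls cell polarity, had 0.47, 0.28 and 0.21, and ABI1, a subunit of the WAVE actin regulator, had 0.37, 0.28 and 0.22. HNRPD and HNRPF, which encode RNA-binding hnRNP proteins, had 0.22, 0.18 and 0.13 and 0.20, 0.15 and 0.11. Both hnRNP genes and ABI1 were above all 12 other arrays. NFYA, a subunit of a CCAAT-binding factor, had 0.42, 0.15 and 0.12, above a highest value of 0.0079 elsewhere. With array 1 of miR-181d left out as well, none of these 5 genes passed (limma adjusted p from 0.12 to 0.197).

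All 3 miR-181d values lay below the 12 other arrays for 268 probes (0.856%) and above them for 192 (0.613%). The same counts were 754 and 522 for miR-574-3p, 139 and 119 for miR-565, 120 and 53 for miR-766 and 116 and 111 for miR-629*. Against single miRNAs, 165 probes differed between miR-181d and miR-574-3p (73 lower and 92 higher), 23 between miR-181d and miR-565 (0 lower and 23 higher) and 12 between miR-181d and miR-629* (1 lower and 11 higher). Against miR-766 no probe differed (lowest limma adjusted p = 0.147).

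Each channel was then compared with the same dye on the other arrays, to set the sides of the ratio apart. In Cy5, the mimic channel, 0 probes differed from the mean of the other mimics (0%, limma, with 1205 at an unadjusted p under 0.05). In Cy3, the antagomir channel, 598 probes did (1.91%), 258 lower and 340 higher. That balance turned with median centering of the channel (314 lower and 250 higher) and without array 1 of miR-181d (208 lower and 183 higher). The count of probes for the Cy3 signal against the other antagomirs was 356 (1.14%) without replicate 1 of miR-565, and 391, 112 and 246 without arrays 1, 2 and 3 of miR-181d. With slide as a block, which rests on replicate 1 of miR-565, the Cy5 signal against the other mimics differed for 15949 probes (9490 lower and 6459 higher), and the Cy3 signal against the other antagomirs for 51. Of the 152 probes that passed without replicate 1 of miR-565, the 97 lower ones had a median log2 difference of -0.08 in Cy5 and 0.27 in Cy3, and the 55 higher ones had 0.04 and -0.24. For FSTL4 and CLDN2 the Cy5 differences were -0.61 and -0.36 and the Cy3 differences -0.02 and 0.03, none of which passed (limma adjusted p in Cy5 of 1 for both, and of 0.377 and 0.372 without replicate 1 of miR-565). Whether the Cy3 signals differ through the antagomir, the culture or the hybridization was not tested.

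Next, genes that earlier work has reported as targets of the miR-181 family were examined. Of 40 such genes on the array, 37 were tested, and TIMP3, HOXA11 and GRIA2 were not. None was lower at a limma adjusted p under 0.05, beside 2.70% of all genes, and 5 were higher, beside 3.69% of all genes. The median log2 ratio of the 37 was 0.07 (0.07, 0.03 and 0.10 on the 3 arrays), where it was 0.02 over all genes. The median of the 37 was 0.03 without array 1 and 0.0046 after normexp correction. Their median difference from the other miRNAs was -0.01, where it was 0.00 over all genes. The same genes had medians of 0.13 on the arrays of miR-629*, 0.05 on those of miR-766, 0.03 on those of miR-565 and 0.00 on those of miR-574-3p. The miR-181d median lay within the range of these 4.

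The 5 reported targets that passed were all higher with the mimic, and 4 of them are given here. GATA6, a transcription factor of lung and gut epithelium, had log2 ratios of 0.76, 0.47 and 0.39 (limma adjusted p = 0.0143). RNF2, a Polycomb ubiquitin ligase, had 0.54, 0.19 and 0.27 (limma adjusted p = 0.0394). RALA, a RAS-like GTPase, had 0.35, 0.22 and 0.17 (limma adjusted p = 0.0216). CDKN1B, the cell cycle inhibitor p27, had 0.28, 0.20 and 0.24 (limma adjusted p = 0.015). All 4 overlapped the range of the 12 other arrays, and their differences from the other miRNAs lay between -0.05 for CDKN1B and 0.14 for RALA (limma adjusted p between 0.694 and 0.911). Of the 37 genes none was called without array 1 or without array 2, and 1 was higher without array 3 (GATA6). Without replicate 1 of miR-565, 1 was lower and 14 were higher, in a setting that called 11.96% of all genes lower and 16.25% higher.

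Among the apoptosis regulators of this set, BCL2 had ratios of 0.26, 0.01 and -0.05, and MCL1, also an inhibitor of cell death, had -0.04, -0.07 and 0.01. BCL2L11, which encodes the death-promoting BIM, had 0.03, 0.06 and -0.15. BIRC4 (XIAP), a caspase inhibitor, had -0.54, -0.25 and -0.01 (limma adjusted p = 0.171). These genes straddled 0 or moved apart between arrays. Phosphatases that act on RAS and ERK signaling gave 0.41, 0.32 and 0.17 for DUSP5, 0.00, -0.19 and 0.02 for DUSP6, and 0.21, 0.11 and 0.14 for PTPN11, with no adjusted p under 0.05. The lowest mean of a reported target belonged to ATM, the DNA damage kinase, whose values of -1.52, -0.50 and 0.34 spanned 0. CDX2, an intestinal transcription factor with a dim Cy3 signal of 17.4, had -0.70, -0.38 and -0.45 (limma adjusted p = 0.0576). Over the 37 genes, 16 were positive on all 3 arrays and 5 were negative on all 3, namely CDX2, BIRC4, SMAD7, DDIT4 and USP28. Of all 22995 genes tested, 7129 were positive on all 3 arrays and 5436 were negative on all 3.

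**Figure D3:**
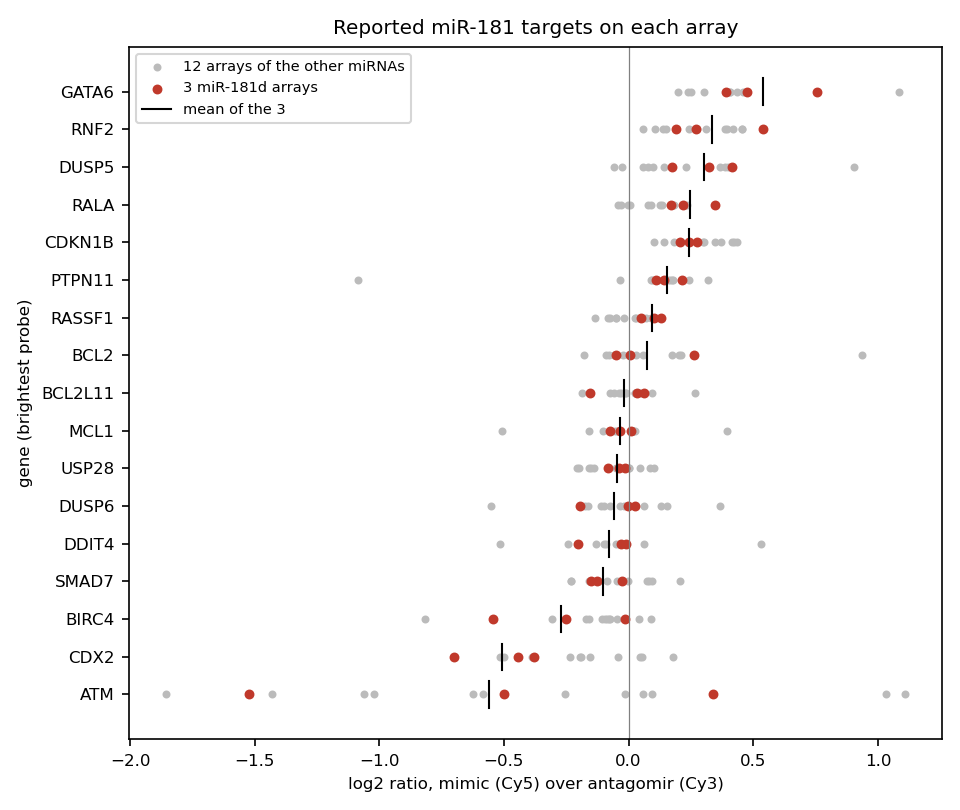
Log2 ratio (mimic over antagomir, x axis) of 17 of the 37 tested reported miR-181 targets, those named in the text (y axis, brightest probe), on the 3 miR-181d arrays (red), with their mean (black tick) and the 12 other arrays (gray). In every gene drawn at least 1 red point lies inside the range of the gray points, and none of these genes was lower at a limma adjusted p under 0.05.

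The probe sequences were then searched for the 7 letters TGAATGT that pair with the seed, on the strand of the transcript. Of the 31319 probes, 270 (0.862%) hold them. Their median log2 ratio was 0.09 (0.10, 0.07 and 0.10 on the 3 arrays), where it was 0.01 over all probes. They thus lay higher rather than lower with the mimic. After normexp correction this median was smaller, with the value given in the last section. Of the 270 probes, 5 (1.85%) were lower and 15 (5.56%) higher at a limma adjusted p under 0.05, beside 2.87% and 3.42% of all probes. The same probes had medians of 0.11 for miR-629*, 0.08 for miR-766, 0.06 for miR-574-3p and 0.05 for miR-565. Their median difference from these was 0.01, and -0.01 without replicate 1 of miR-565. The 69 probes with the longer match TGAATGTA, which are contained in the 270, had a median ratio of 0.12. The 205 probes with the reverse complement ACATTCA, the seed itself, had 0.05. A probe covers 60 bases of a transcript, so that sites elsewhere in the same mRNA were not searched.

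The following probes show the match (capitals) within up to 10 bases on either side, from genes that are a reported target, a RAS gene, or those with the smallest adjusted p in each direction.

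RASSF1: atgaagtgcgTGAATGTatgtaatgtg
NRAS: aTGAATGTctgagatacg
YWHAG: tggaatatcaTGAATGTgagtcattat
MKNK2: gaagaatactTGAATGTcgggggg

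The RASSF1 probe (chr3:50342324-50342383, minus strand, NCBI36), for a tumor suppressor that binds RAS, had log2 ratios of 0.10, 0.05 and 0.13 (limma adjusted p = 0.257). The NRAS probe (chr1:115051456-115051515, minus strand, NCBI36) had 0.20, 0.19 and 0.37 (limma adjusted p = 0.0178), with a difference from the other miRNAs of 0.13 (limma adjusted p = 0.707). The YWHAG probe (chr7:75794069-75794128, minus strand, NCBI36), for a phosphoserine-binding adaptor, had 0.44, 0.26 and 0.28 (limma adjusted p = 0.00269), inside the range of the 12 other arrays for arrays 2 and 3. Only the MKNK2 probe (chr19:1989190-1989249, minus strand, NCBI36), for a kinase of the translation factor eIF4E, was lower among the 4 shown, with -0.72, -0.49 and -0.55 (limma adjusted p = 0.00919). Its difference from the other miRNAs was -0.18 (limma adjusted p = 0.787).

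Probes with the seed match were poorer in G and C than the rest (median 40% against 43.3%), and the ratio moved with base composition. Among probes with a signal of at least 100, the median log2 ratio was 0.10 under 35% GC, 0.09 from 35% to 40%, 0.03 from 40% to 45%, -0.01 from 45% to 50%, -0.11 from 50% to 55% and -0.12 from 55%. From 35% to 40% GC, 49 of 5579 probes were called lower and 472 higher. From 55%, 314 of 2913 were called lower and 19 higher. Within bins, seed-match probes had a median of 0.13 against 0.09 from 35% to 40% (74 probes), 0.12 against 0.03 from 40% to 45% (44 probes) and -0.05 against -0.01 from 45% to 50% (29 probes). In no bin with 20 or more seed-match probes were they lower than the rest by more than 0.04. The part of base composition in the gene lists was not tested.

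**Figure D4:**
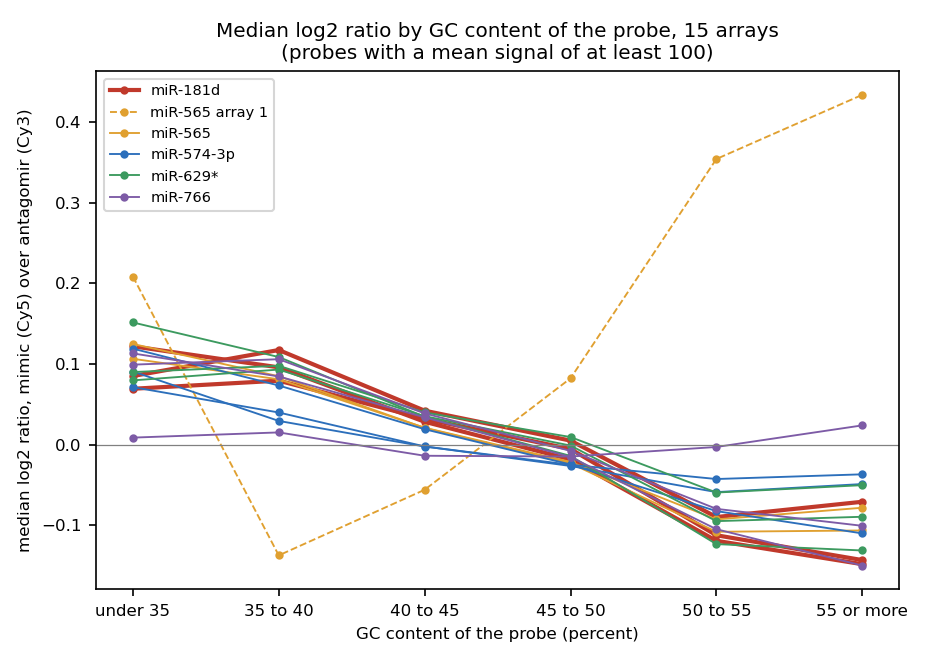
Median log2 ratio (mimic over antagomir, y axis) of tested probes with a mean signal of at least 100 by GC content of the probe (x axis, percent), 1 line per array. The 3 miR-181d lines lie above 0 up to 45% GC and below 0 from 50%, as do most other arrays, while replicate 1 of miR-565 (dashed) rises steeply from 45%.

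Groups of genes with a shared role were described by how many members passed against 0 and by their median ratio. These are to be read beside 2.70% lower and 3.69% higher of all genes and a median of 0.02. Bright probes were called more often. Of 8606 probes with a mean signal of at least 1000, 525 were lower and 435 higher, against 28 and 109 of 5277 under 20. The shares over all genes are not matched to the signal of a list, and many lists are bright. Over all lists 40 of 666 genes were lower and 37 were higher. These calls rest on all 3 arrays: 5 and 2 were left without array 1, 7 and 2 without array 2, and 12 and 8 without array 3, while without replicate 1 of miR-565 there were 109 and 163. Of all genes, 0.157% were lower and 0.283% higher without array 1, 0.318% and 0.457% without array 2, 0.713% and 1.08% without array 3, and 11.96% and 16.25% without replicate 1 of miR-565. The 7 genes called in every one of these settings were MCM7, PSMC3, ENO1, KRT7 and ALDH3A1 (lower) and TYMS and RPL38 (higher). Counts below are those with all arrays. In that setting no list member differed from the other miRNAs at a limma adjusted p under 0.05. Of 16 genes of the BCL2 family, 1 was lower. It was BCL2L1, which encodes the survival protein BCL-XL, with log2 ratios of -0.44, -0.47 and -0.47 (limma adjusted p = 0.024). Of 20 targets of p53, 2 were lower, SFN (-0.50, -0.55 and -0.45, limma adjusted p = 0.0192) and PHLDA3 (-0.51, -0.48 and -0.40, limma adjusted p = 0.0168). SFN, a cell cycle checkpoint protein, lay below all 12 other arrays. Of 20 genes of the DNA damage response, 1 was lower, the histone gene H2AFX (-0.36, -0.18 and -0.16, limma adjusted p = 0.0398).

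In the RAS and ERK pathway, 1 of 14 RAS and RAF genes was lower and 2 were higher. ARAF, a RAF kinase, was lower (-0.42, -0.38 and -0.59, limma adjusted p = 0.0256), and NRAS and RALA were higher, with the values above. MAPK3, which encodes ERK1, had -0.47, -0.42 and -0.48 (limma adjusted p = 0.0769), below all 12 other arrays. Against the other miRNAs without replicate 1 of miR-565, MAPK3 was the 1 of these 14 genes that was lower, beside 0.326% of all genes. None was higher, beside 0.200%. The limma adjusted p of MAPK3 for this difference was 0.0317, against 0.681 with all arrays. It was 0.0875 with array 1 of miR-181d left out as well. None of 13 feedback genes of ERK was called, and their median was 0.13 (0.05 without array 1 and -0.21 with slide as a block). Their median difference from the other miRNAs was -0.08. DUSP1 had 0.12, 0.18 and 0.27 (limma adjusted p = 0.087). Of 15 immediate early genes 1 was lower, IER2 (-0.18, -0.21 and -0.18), and 1 was higher, ATF3 (0.38, 0.28 and 0.41), a stress-induced transcription factor. The differences of IER2 and ATF3 from the other miRNAs were 0.04 and -0.05 (limma adjusted p = 0.879 and 0.902).

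Among 30 genes of DNA replication and the G1/S transition, 5 were lower and 1 was higher. The lower ones were MCM7 (-0.32, -0.27 and -0.22), a subunit of the replicative helicase, CDT1, POLE, CCND1 and TK1. Their means lay between -0.67 for POLE and -0.20 for TK1. Their differences from the other miRNAs lay between -0.24 for POLE and 0.02 for MCM7 (limma adjusted p between 0.767 and 0.932). TYMS, thymidylate synthase, was higher, with 0.37, 0.42 and 0.38 (limma adjusted p = 0.000672), above all 12 other arrays. The median of the 30 genes was 0.00. Of 29 mitosis and kinetochore genes, 1 was higher, the cyclin gene CCNB1 (0.20, 0.17 and 0.19, limma adjusted p = 0.0114), and the median was 0.09.

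The largest count in a list belonged to the cytosolic ribosomal proteins, which were bright, with a median Cy3 signal of 94070. Of 46 tested, 11 were higher and 2 were lower, with a median of 0.12. RPL38 had ratios of 0.32, 0.24 and 0.31 (limma adjusted p = 0.00193). RPLP2 (-0.27, -0.19 and -0.21) and RPS3 (-0.21, -0.09 and -0.12) were the lower ones. The same list had medians of 0.12 for miR-574-3p, 0.13 for miR-629*, 0.08 for miR-766 and 0.06 for miR-565, and its median difference from the other miRNAs was 0.01, so that the miR-181d median lay within the range of these 4. Of 31 proteasome subunits, 6 were lower and none was higher, with PSMC3 (-0.44, -0.50 and -0.43, limma adjusted p = 0.000369) and PSMD13 (-0.44, -0.29 and -0.35, limma adjusted p = 0.00308) the lowest. The other 4 were PSMB5, PSMB6, PSMD8 and PSMD11, with ratios from -0.30 to -0.06 on single arrays. The means of PSMC3 for the other miRNAs ran from -0.46 to -0.27, and the median difference of the 31 genes was 0.04. Of 20 aminoacyl-tRNA synthetases 2 were lower, AARS (-0.29, -0.17 and -0.40) and YARS (-0.39, -0.17 and -0.44), and the median was -0.09.

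Stress and immune lists held few calls. Of 19 genes of the unfolded protein response, DDIT3 was higher (0.40, 0.28 and 0.32) and PHGDH, the first enzyme of serine synthesis, was lower (-0.40, -0.37 and -0.35). Their differences from the other miRNAs were 0.03 and -0.14 (limma adjusted p = 0.944 and 0.754). None of 13 heat shock proteins and none of 20 targets of NRF2 was called. DNAJA1, a cochaperone, had 0.10, 0.14 and 0.06, above all 12 other arrays. It differed from the other miRNAs without replicate 1 of miR-565 (limma adjusted p = 0.037, against 0.771 with all arrays). That call was lost with array 1 of miR-181d left out as well (limma adjusted p = 0.115). Of 26 interferon response genes, 1 was lower (IFI35, -0.36, -0.47 and -0.49), and of 17 inflammatory cytokine genes 1 was higher, the NF-kB inhibitor NFKBIA (0.31, 0.21 and 0.15). These counts were at or near the shares over all genes.

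Among metabolic genes, 5 of 27 glycolysis and hypoxia genes were lower and 2 were higher, with a median of -0.02. ENO1, enolase, had -0.39, -0.34 and -0.34 (limma adjusted p = 0.00213), GAPDH had -0.27, -0.17 and -0.20 (limma adjusted p = 0.0459), and ALDOA, ENO2 and PKM2 were the others. The hypoxia genes ADM (0.14, 0.21 and 0.21) and BNIP3 (0.27, 0.19 and 0.19) were higher. PKM2 was the 1 member that also differed from the other miRNAs without replicate 1 of miR-565 (difference -0.26, limma adjusted p = 0.0327). Of 42 respiratory chain genes 3 were lower, among them COX8A (mean -0.22) and ATP5B (-0.16), and 1 was higher, COX7B (0.22). Of 23 genes of sterol and fatty acid synthesis, MVD was lower (-0.50, -0.60 and -0.49) and STARD4 higher (0.39, 0.21 and 0.28).

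Among 20 epithelial genes, 2 keratins were lower and 3 genes were higher. KRT7 had -0.68, -0.61 and -0.56 (limma adjusted p = 0.000899) and KRT8 had -0.19, -0.28 and -0.44 (limma adjusted p = 0.0218). KRT18, the partner of KRT8, had 0.24, 0.31 and 0.12 (limma adjusted p = 0.0479), and the tight junction genes TJP1 (0.47, 0.36 and 0.39) and OCLN (0.40, 0.36 and 0.31) were higher. TJP1 was above all 12 other arrays, whereas the keratins had ratios of the same sign for each of the other 4 miRNAs. Of 27 mesenchymal and matrix genes, COL4A1 (0.31, 0.24 and 0.30) and TGFB2 (0.66, 0.61 and 0.49) were higher. None of 11 integrins was called, and their median of -0.12 became 0.01 without array 1. ITGB4, which anchors epithelial cells to the basement membrane, had -0.22, -0.17 and -0.18 (limma adjusted p = 0.283), below all 12 other arrays. None of 15 growth factor receptors and none of 21 TGF-beta pathway genes was called.

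In the remaining pathways, NOTCH2 was higher (0.28, 0.25 and 0.26, limma adjusted p = 0.0103) among 15 Notch genes, and its means for the other miRNAs were 0.23 to 0.30. Of 21 Wnt genes, CTNNB1, beta-catenin, was higher (0.84, 0.27 and 0.15, limma adjusted p = 0.0191). ZNRF3 (-0.71, -0.43 and -0.31, limma adjusted p = 0.0103) and RNF43 (-0.26, -0.23 and -0.29, limma adjusted p = 0.0285), a pair of ubiquitin ligases that remove Wnt receptors, were lower. The level of CTNNB1 rested mostly on array 1, and its adjusted p was 0.0212 to 0.0944 with single arrays left out. Of 17 genes of the miRNA machinery, 1 was lower, TNRC6C (-0.55, -0.19 and -0.19), a partner of Argonaute.

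Of 26 splicing factors, 3 were higher and none was lower, and their median difference from the other miRNAs (0.15) was the highest of the lists with at least 10 genes. It was 0.11 without replicate 1 of miR-565 and 0.13 to 0.17 without each miR-181d array, still the highest, although without array 1 the clustered histone genes lay further from 0 on the other side (-0.15). With slide as a block it was 0.48, below DNA damage genes (0.59) and heat shock proteins (0.50), and the histone genes were at -0.76. HNRPA3, the hnRNP gene with the low ratios given above, is not on this list. SFRS2 (SRSF2) had 0.31, 0.45 and 0.42 (limma adjusted p = 0.0216), and HNRPD and HNRPF were the other two. For 5 of the 26 all 3 arrays lay above the 12 others, beside 0.639% of all genes. Besides HNRPD and HNRPF these were HNRPH1 (0.46, 0.12 and 0.14), SFRS3 (0.08, 0.04 and 0.04) and TIAL1 (-0.02, -0.02 and -0.03), none with an adjusted p under 0.05 against 0. The medians of the list were 0.00 for miR-766, -0.02 for miR-629*, -0.07 for miR-574-3p and -0.16 for miR-565. Clustered histone genes had a median difference of -0.14, which was -0.09 without replicate 1 of miR-565, and of 23 tested 2 were lower and 1 was higher. HIST1H2AC was the higher one (0.31, 0.30 and 0.24), and the linker histones HIST1H1C, HIST1H1D and HIST1H1E lay below all 12 other arrays, beside 0.826% of all genes. The median of the histone genes was 0.27 for miR-565, 0.15 for miR-629*, 0.04 for miR-766 and 0.02 for miR-574-3p.

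**Figure D5:**
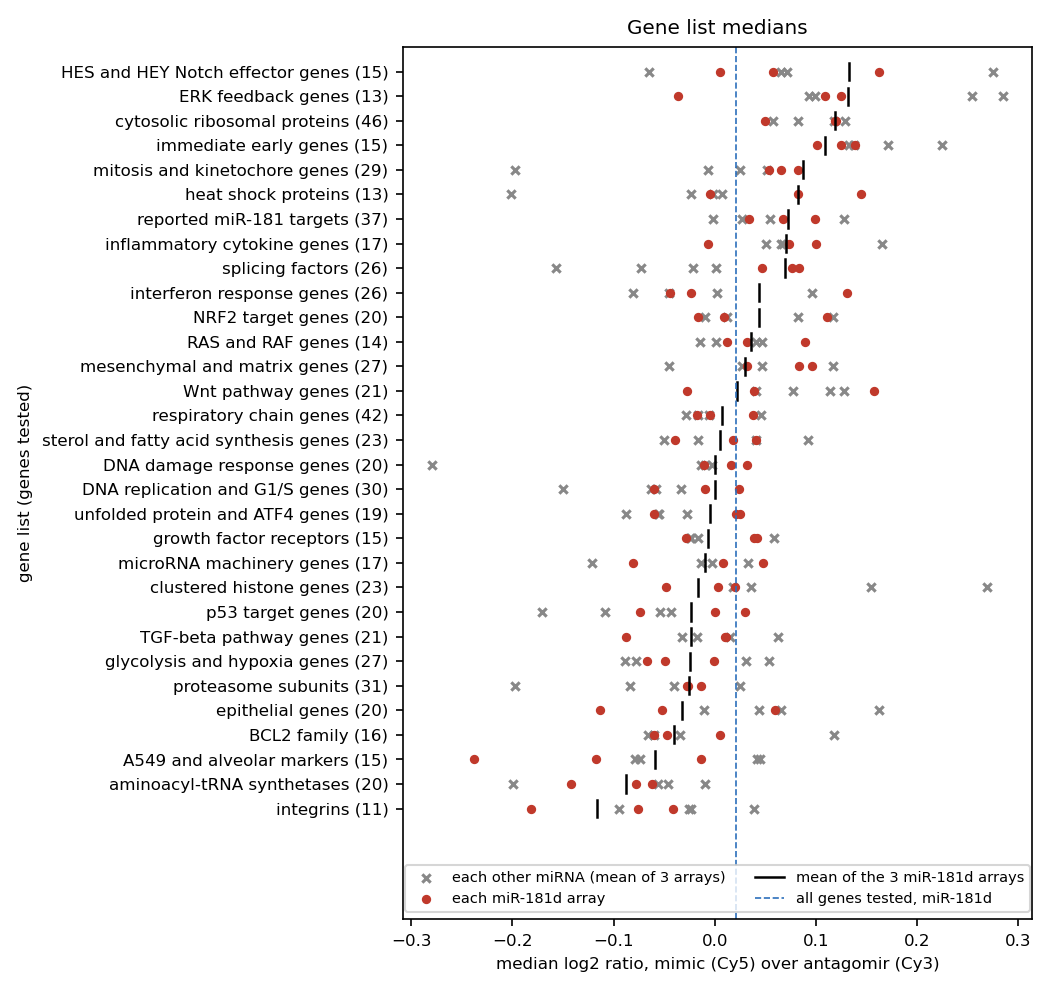
Median log2 ratio (mimic over antagomir, x axis) of each gene list with at least 10 tested genes (y axis) on the 3 miR-181d arrays (red), over their mean ratios (black tick) and for each other miRNA (gray crosses), with the median of all genes (0.02) as a dashed line. Splicing factors (0.07), mitosis and kinetochore genes (0.09) and heat shock proteins (0.08) are among the lists to the right of the other miRNAs. The ribosomal proteins (0.12) lie among the other miRNAs.

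The identity of the cells was checked on markers. The keratins KRT8 and KRT18 and the detoxifying enzymes AKR1C1, AKR1B10, ALDH1A1 and ALDH3A1, which A549 cells express strongly, had Cy3 signals from 8203 (ALDH3A1) to 134100 (AKR1B10). The surfactant gene SFTPB was not well above background in Cy3 on any of the 3 arrays, and SFTPA1, SFTPD and SFTPC were dim (13.8, 14.7 and 86.8). Of 6 blood cell markers 4 were tested, with signals up to 167 for CD14, and of 7 fibroblast and endothelial markers PDGFRA (12.7) and VWF (9.24) were tested. Of 15 A549 and alveolar markers tested, 3 were lower and 1 was higher, beside 2.70% and 3.69% of all genes. ALDH3A1 was the lowest marker, with ratios of -0.64, -0.68 and -0.74 (limma adjusted p = 0.0018), and its means for the other miRNAs ran from -0.64 to -0.34.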

How the data were processed

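The authors deposited Feature Extraction output for 15 dual-color arrays (Agilent Feature Extraction 9.5.3 per the labels). The deposited intensity values are processed signals per channel, which the authors' software corrected for background and normalized between dyes, and raw mean signals and backgrounds. The deposited log10 ratio equals the series table (largest difference 0), and its error is a score from the software's error model deposited beside it. The Rosetta Resolver step of the methods was not used here.

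In R 4.3.3, 1639 control spots per array and 2296 outlier spots were left out, spots were averaged to 41000 probes, and log2(Cy5/Cy3) was fitted with limma 3.58.1 (1 coefficient per miRNA, 15 arrays, intensity trend). Benjamini-Hochberg adjustment covered 31319 probes, each well above background on 3 or more of the 15 arrays in Cy5 or Cy3. The channels were quantile-normalized within a dye. For gene lists, the brightest probe stood for a gene. The fitting procedure was tested on simulated data with independent noise on each array. These data held no slide effect and no array of wider spread, so they cannot show how those act on the counts. Probe positions are NCBI36, and 17363 of 30484 gene names matched RefSeq (GRCh38.p14).

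Named genes are those suppressed or induced by the methods' thresholds, the 5 per direction with the smallest p for the difference, list members past adjusted p 0.05, and, chosen after their values were seen, genes of the largest ratios, of the fit without replicate 1 of miR-565, and of reported targets. Members and lists were chosen with earlier results of these data known. Alternatives were other background correction, centering, weighting, filters, blocks and left-out arrays. Same-numbered arrays of different miRNAs deviated together (r over 0.1) in 13 of 30 pairs, and different-numbered ones in 16 of 60, so numbers were not taken to pair arrays. Some genes are not reported here.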

Additional observations from a re-analysis of the deposited data

Results flagged for a closer look

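Of the 10 genes named for the smallest p in the comparison with the other miRNAs, 8 had a log2 ratio on the miR-181d arrays that differed from that of a single other miRNA in the same limma fit. Against miR-574-3p, the ratio of miR-181d differed by -2.54 for TRIOBP (adjusted p = 6.9e-06), by -2.35 for FGFRL1 (2.03e-05), by -1.78 for CD22 (0.027), by -0.64 for CAPNS1 (0.00403) and by 0.83 for SPIN1 (9.79e-05). Against miR-629*, it differed by 0.94 for MGST3 (9.17e-06), by 0.63 for HSBP1 (0.000705) and by 0.76 for TMEM85 (0.000746). The mean ratios of the other miRNA were 2.31 for TRIOBP, 2.16 for FGFRL1, 1.19 for CD22, 0.31 for CAPNS1 and -0.60 for SPIN1 with miR-574-3p, and -1.05 for MGST3, -0.41 for HSBP1 and -0.89 for TMEM85 with miR-629*. These 8 genes had been chosen for a small p against the mean that includes those arrays.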

How the results depend on the processing

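The genes suppressed at the methods' thresholds (2) numbered 1 after normexp, 0 error-weighted, 0 with the 3 arrays alone, 308 with the slide block, 1 by mean of probes, 4 at an adjusted p and 0 to 13 without each miR-181d array in turn, and 0 with both wide arrays left out. Induced genes (6) numbered 0 after normexp, 13 error-weighted, 1383 with the slide block, 3 with the filter on both channels, 0 at a signal minimum of 100 and 4 to 8 without each array. Genes lower at an adjusted p (831) numbered 1640 after normexp, 1363 centered, 1751 error-weighted, 1283 with the 3 arrays alone, 6529 with the slide block, 4980 with no filter, 513 by mean of probes, 43 to 236 without each array, 3485 without replicate 1 of miR-565 and 2304 without both wide arrays. Genes higher (1029) numbered 5462 with the slide block, 1577 with no filter, 554 by mean of probes, 75 to 300 without each array, 4337 without replicate 1 of miR-565 and 2479 without both. Genes lower than on the other arrays (0) numbered 176 error-weighted, 7580 with the slide block, 94 without replicate 1 of miR-565, 15 without both and 8590 against the same slide, and 0 without each array. Genes higher (0) numbered 578, 5733, 54, 1 and 6147 in the same order, and 0 without each array. The slide block and the same-slide reference rest on replicate 1 of miR-565 alone. Probes called for the Cy5 signal against the other mimics (0) numbered 15949 with the slide block and 0 to 1 without each array, and Cy3 calls (598) numbered 51 with the slide block, 112 to 391 without each array and 356 without replicate 1 of miR-565. The median ratio of reported targets (0.07) was 0.0046 after normexp, 0.026 with the slide block and 0.0264 to 0.11 without each array. The seed-match median ratio (0.09) was 0.0354 after normexp, and the seed-match median difference (0.0053) was -0.0166 with the slide block. The difference of AA301508 turned to -0.42 with the slide block and ranged from -0.0082 (without array 1) to 0.20 with each array left out. The causes were not tested. With the replicate number as a block, 665 genes were lower, 867 higher, 2 suppressed and 5 induced, and 0 probes differed from the other miRNAs (2383 at an unadjusted p under 0.05). The ratios of dim probes, with a median SD of 0.40 under a signal of 20, limit what these arrays can show.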
